A study of Mus musculus with 123 samples.

Results

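CC041/TauUnc is 1 of the 22 Collaborative Cross (CC) strains whose livers were profiled, and its 5 mice were set against the mice of the other 21 strains. The CC is a panel of inbred mouse strains bred from a shared set of founder strains, so that the mice of a strain are near copies of each other and strains differ across the whole genome. All 123 mice of the series were female, were 6 to 9 weeks old on arrival, ate the synthetic diet AIN-76A for 2 weeks and then an experimental diet for 8 weeks, and were fasted for 4 h before the liver was taken. The experimental diet was either high protein (HP) or high fat and high sucrose (HS), and no group stayed on a plain diet. Of the CC041/TauUnc mice, chosen by their strain label, 3 ate the HP diet and 2 the HS diet. The other 21 strains gave 60 mice on HP and 57 on HS.

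RNA of each liver was read on 1 Affymetrix MoGene 2.1 ST array, and all levels below are log2 signals, on which a difference of 1 is a doubling. Gene levels were compared between mice and not between genes, because the probes of different genes differ in brightness. The labels do not say which mice shared a cage, a litter, a collection day or an array plate. Each CC041/TauUnc profile, centred gene by gene, correlated best with the remaining mice of its own strain (r of 0.502 to 0.696 across genes, against 0.094 to 0.161 for the nearest other strain). A mouse labelled CC059/TauUnc HS correlated at 0.139 with its own strain and at 0.743 with CC035/Unc, and it was left out, which leaves 122 mice. Array medians were 3.03 to 3.11 in CC041/TauUnc and 2.97 to 3.16 in the other mice. Hepatocyte markers averaged 11.36 to 11.56 in CC041/TauUnc livers and 10.74 to 11.62 in the other livers, so the samples carry the defining transcripts of liver.

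The liver makes most plasma proteins, among them the complement factors and the acute phase proteins, and it builds fatty acids and cholesterol when sugar is plentiful. Hepatocytes do most of this work, beside endothelial cells that line the sinusoids, resident macrophages called Kupffer cells, and stellate cells. When dietary protein is high, hepatocytes raise the enzymes that break down amino acids. In mice, liver transcripts of many of these genes differ between inbred strains, through sequence variants near the gene or elsewhere in the genome.

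The first question was in which genes the CC041/TauUnc liver stood apart from the livers of the other strains, with diet held constant. At an adjusted p under 0.05, 2.33% of the 10942 genes tested differed, 0.823% higher (90 genes) and 1.51% lower in CC041/TauUnc. Their median difference was 0.56 in size, 52 of them passed 1 on the log2 scale and 20 passed 2. The genes with the largest differences included the potassium channel gene Kcnma1, the lipid hydrolase gene Gdpd3 and the ATP receptor gene P2rx7, all higher, and the complement gene C9, the steroid hydroxylase gene Cyp17a1 and the iron-trap gene Lcn2, all lower. The strain mean of CC041/TauUnc was outside the range of the other 21 strain means in 845 genes (7.72%), 3.79% above and 3.93% below. Of these, 183 were among the genes that differed. The same count ran from 606 in CC027/GeniUnc to 2047 in CC024/GeniUnc, so 845 was not unusual for a strain of the panel.

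The mice of CC041/TauUnc are copies of 1 genotype, so the spread between strains bears on these calls. With strain as a random block (a correlation of 0.311 between mice of a strain), 34 genes passed (0.311% of those tested). Of these, 10 were higher (0.0914%) and 24 lower (0.219%), and all were among the genes that differed with mice as units. The correlation is 1 value shared by all genes, so strain spread is under-corrected in genes whose mice are more alike within strains. In the fit that compared strain means, 1499 passed (13.7%), more than the 845 genes with the CC041/TauUnc mean outside the others' range. A pass in that fit therefore does not show that CC041/TauUnc stood apart from the spread between strains. The same comparison run for each strain in turn called 93 genes for CC059/TauUnc to 1397 for CC008/GeniUnc, with a median of 781 over the other strains, and CC041/TauUnc had the second lowest count. Adjusted p-values below are from limma with diet as a term and mice as units, and "with strain as a block" marks those from the random block.

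Among channels and receptors, Kcnma1, which encodes the pore of the large-conductance calcium-activated potassium channel, had the largest rise. Its log2 signals were 9.58, 9.80 and 9.56 in the CC041/TauUnc HP mice and 9.78 and 10.27 in the HS mice, against 1.33 to 10.18 with a median of 2.02 in the other mice. Only 2 other mice reached the CC041/TauUnc levels, and most of the rest sat near the bottom of the scale. The difference was 7.20 ± 0.79 (SE), with an adjusted p of 8.15e-12 and of 5.13e-08 with strain as a block. By strain mean CC041/TauUnc stood at 9.83, CC036/Unc at 8.45 and CC035/Unc at 4.79, against a strain median of 2.13. A second transcript cluster of Kcnma1, below the expression limit, read 2.14 in CC041/TauUnc and 2.17 in the other mice, so the difference rested on 1 of 2 clusters of the gene.

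P2rx7, which encodes an ATP-gated cation channel known from macrophages and other immune cells, separated the groups completely. It read 7.16, 7.64 and 7.33 in the HP and 7.46 and 7.73 in the HS mice of CC041/TauUnc, against 4.74 to 6.69 with a median of 5.42 in the other mice. Every CC041/TauUnc mouse was above every other mouse, by a fitted 4.17-fold (2.06 ± 0.16 on the log2 scale, adjusted p 4.36e-20, and 1.14e-11 with strain as a block). C5ar2, a receptor for the complement fragment C5a, was higher by 0.79 ± 0.21 (adjusted p 0.0208, and 0.525 with strain as a block). Grk3, a kinase that turns off G protein-coupled receptors, was higher by 1.31 ± 0.34 (adjusted p 0.0149, and 0.219 with strain as a block). Vmn1r53 belongs to a large family of similar vomeronasal receptors, so its difference of 2.40 ± 0.60 (adjusted p 0.0112, and 0.0611 with strain as a block) is uncertain as to the gene.

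**Figure D1:**
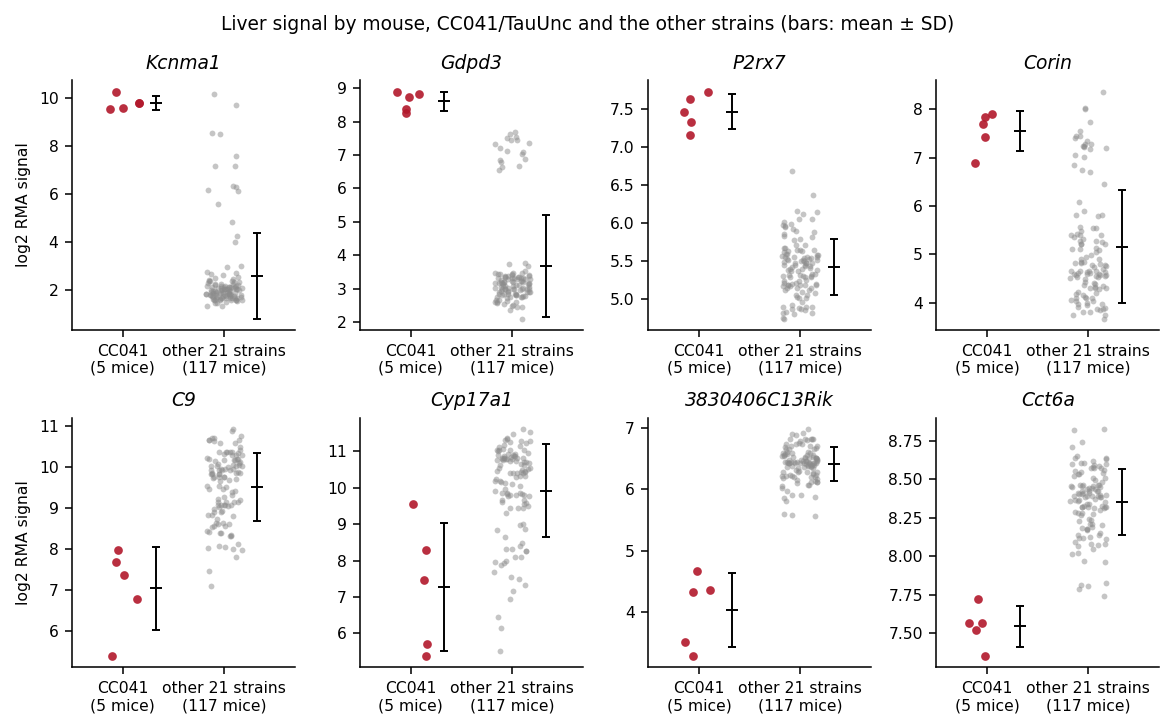
Log2 array signal (vertical axes) of genes of the strain comparison in each mouse, with CC041/TauUnc mice left of the other mice and bars for the mean and SD. P2rx7 and Gdpd3 were higher, and 3830406C13Rik and Cct6a lower, in all 5 CC041/TauUnc mice than in every other mouse.

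Among lipid genes, Gdpd3, which encodes a lysophospholipase D, also separated the groups. It read 8.83, 8.39 and 8.74 in CC041/TauUnc HP mice and 8.25 and 8.89 in HS mice, against 2.10 to 7.70 with a median of 3.16 in the other mice. The other strains split into high and low ones, with means of 7.25 in CC030/GeniUnc, 7.13 in CC032/GeniUnc and 7.10 in CC040/TauUnc and a strain median of 3.03. The CC041/TauUnc mice lay above the high strains too, and the fitted difference was 4.94 ± 0.68 (adjusted p 6.02e-08, and 5.13e-08 with strain as a block).

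Vldlr, the receptor for very low density lipoprotein, read 7.82, 7.52 and 7.20 in CC041/TauUnc HP mice and 7.05 and 7.22 in HS mice, against 2.63 to 7.81 with a median of 4.93 in the other mice. It was higher by 2.25 ± 0.41 (adjusted p 1.55e-04, and 0.0115 with strain as a block), but CC012/GeniUnc had the higher strain mean, 7.46 against 7.32. Adipor2, a receptor for the fat-cell hormone adiponectin, read 9.58, 9.08 and 9.49 on HP and 9.35 and 9.21 on HS, against 9.18 to 10.69 with a median of 10.25 in the other mice. All 5 mice were thus in the lowest part of the range, with 5 other mice at or below the highest of them, and Adipor2 was lower by 0.85 (log2 difference −0.85 ± 0.12, adjusted p 9.46e-08, and 1.53e-04 with strain as a block).

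The lipid droplet coat gene Plin3 was higher by 0.53 ± 0.11 (adjusted p 0.00131, and 0.323 with strain as a block) and Apom, the lipoprotein that carries sphingosine 1-phosphate, by 0.38 ± 0.11 (adjusted p 0.0377, and 0.449 with strain as a block). Serpina12, the gene of the adipokine vaspin, was lower (−1.59 ± 0.45, adjusted p 0.033, and 0.645 with strain as a block). Adipor2, and Corin, Cct6a, Dsc2, Upb1, Wfdc21, Spring1, Rad9b and Habp2 below, were outside the naming rule and were picked after their values with strain as a block were seen, as were Fasn, Thrsp and Srebf1 as known members of their lists.

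Of 21 genes of fatty acid synthesis tested, 2 fell and 0 rose, where 1.51% of all genes tested were lower and 0.823% higher, with a median difference of −0.38 against 0.01 over all genes tested, and 17 of the 21 differences were negative. Elovl3, an elongase of very long chain fatty acids, read 2.32, 3.66 and 2.84 on HP and 4.20 and 3.71 on HS in CC041/TauUnc, against 2.92 to 7.76 with a median of 5.50 in the other mice. All 5 mice were below the median of the others, and the difference was −2.04 ± 0.48 (adjusted p 0.00544, and 0.214 with strain as a block). All of the CC041/TauUnc values but 4.20 were below the expression limit of 4.0764, so the size of this difference is uncertain. Gpam, which adds the first acyl chain to glycerol 3-phosphate, differed by −0.75 ± 0.21 (adjusted p 0.0300, and 0.752 with strain as a block).

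The fatty acid synthase gene Fasn (−0.86 ± 0.35, adjusted p 0.185), the acetyl-CoA carboxylase gene Acacb (−0.88 ± 0.31, adjusted p 0.105) and the lipogenic regulator Thrsp (−1.0 ± 0.37, adjusted p 0.125) did not pass, and Scd1, a desaturase, differed by −0.04 ± 0.23. The mean level of the list was 8.60 to 9.29 in CC041/TauUnc mice, against 8.43 to 10.23 with a median of 9.30 in the other mice, and the strain was the lowest of the 22 by this level. With strain as a block, 0 of the 21 passed. A score of clock genes, which moves with the hour of the day in liver, was −0.99 to 3.31 in CC041/TauUnc and −5.26 to 3.2 in the other mice. With that score as a term, 3 of the 21 genes were lower and the median was −0.29.

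Of 19 genes of cholesterol synthesis, 1 fell and 0 rose, where 1.51% of all genes tested were lower, with a median of −0.34 and 17 differences below 0, and with strain as a block 0 passed. The mean level of the list was 7.57 to 8.26 in CC041/TauUnc mice, against 6.71 to 9.49 with a median of 8.32 in the other mice, and the strain ranked 17 from the top of the 22. The gene was Hmgcs1, which makes HMG-CoA, with 8.4, 8.4 and 8.51 on HP and 9.36 and 8.13 on HS in CC041/TauUnc, against 7.92 to 11.47 with a median of 9.86 in the other mice. All 5 mice were below that median, and the difference was −1.34 ± 0.34 (adjusted p 0.0134, and 0.364 with strain as a block). Spring1, a Golgi protein needed to activate the SREBP transcription factors, was lower by 0.78 (log2 difference −0.78 ± 0.13, adjusted p 1.06e-05, and 0.0218 with strain as a block). Srebf2, which encodes one of these factors, differed by −0.20 ± 0.17 and Srebf1 by −0.06 ± 0.19.

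Among plasma proteins, a large drop was in C9, the last component of the pore that complement forms in membranes. C9 read 7.67, 7.37 and 7.97 on HP and 6.78 and 5.39 on HS in CC041/TauUnc, against 7.09 to 10.92 with a median of 9.75 in the other mice. Only 3 other mice were at or below the highest CC041/TauUnc mouse, and the HS mice were both below every other mouse. The fitted level was 5.58-fold lower (−2.48 ± 0.38 on the log2 scale, adjusted p 1.45e-06, and 1.61e-04 with strain as a block).

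Cfi, the protease that cuts complement fragments C3b and C4b, read 10.60, 10.84 and 10.80 on HP and 10.82 and 10.46 on HS in CC041/TauUnc, against 10.51 to 12.01 with a median of 11.65 in the other mice. Only 2 other mice were as low as the highest of these 5, and the difference was −0.87 ± 0.12 (adjusted p 8.23e-08, and 1.36e-05 with strain as a block). C9 and Cfi were the 2 called among 24 complement genes, both lower (1.51% of all genes tested were lower), and the list had a median of −0.15 with 19 negative differences.

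Of 24 acute phase genes, 2 fell and 0 rose, with a median of −0.12, where 1.51% of all genes tested were lower. Lcn2, a secreted protein that binds bacterial iron carriers, read 4.83, 3.91 and 3.79 on HP and 4.20 and 3.65 on HS in CC041/TauUnc, against 3.65 to 10.35 with a median of 7.12 in the other mice. The 5 mice were all at the low end of a wide range, and the difference of −2.77 ± 0.70 passed with mice as units (adjusted p 0.0134) and not with strain as a block (0.309). The Lcn2 readings of 3.91, 3.79 and 3.65 were below the expression limit of 4.0764, so the size of this difference is uncertain. Haptoglobin (Hp), which binds free haemoglobin, differed by −0.58 ± 0.14 (adjusted p 0.00580, and 0.349 with strain as a block). Habp2, a plasma serine protease, was lower by 0.43 (log2 difference −0.43 ± 0.08, adjusted p 4.40e-04, and 0.0235 with strain as a block). Of 39 interferon response genes 1 fell, Stat2 (−0.45 ± 0.12, adjusted p 0.0263, and 0.752 with strain as a block), a signal transducer of type I interferon, and the list's median was −0.22.

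Wfdc21, a small secreted protein with a whey acidic protein domain, showed a state that CC041/TauUnc shared with other strains. It read 5.06, 5.72 and 5.49 on HP and 4.90 and 4.56 on HS, against 3.86 to 11.51 with a median of 10.84 in the other mice. All 5 mice were low, but CC035/Unc was lower by strain mean (4.74, against 5.08 in CC041/TauUnc), and the difference was −4.35 ± 0.92 (adjusted p 0.00159, and 0.0154 with strain as a block). Corin, a protease that activates atrial natriuretic peptide, was shared in the other direction, with a mean of 7.59 in CC041/TauUnc, 7.74 in CC063/Unc and 7.48 in CC028/GeniUnc against a strain median of 4.89. Its difference was 2.44 ± 0.51 (adjusted p 0.00123, and 0.0140 with strain as a block). Of the 34 genes called with strain as a block, 25 had the CC041/TauUnc mean outside the range of the other strains, and Wfdc21, Corin, Vldlr and Rps13 were among the 9 that did not.

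**Figure D2:**
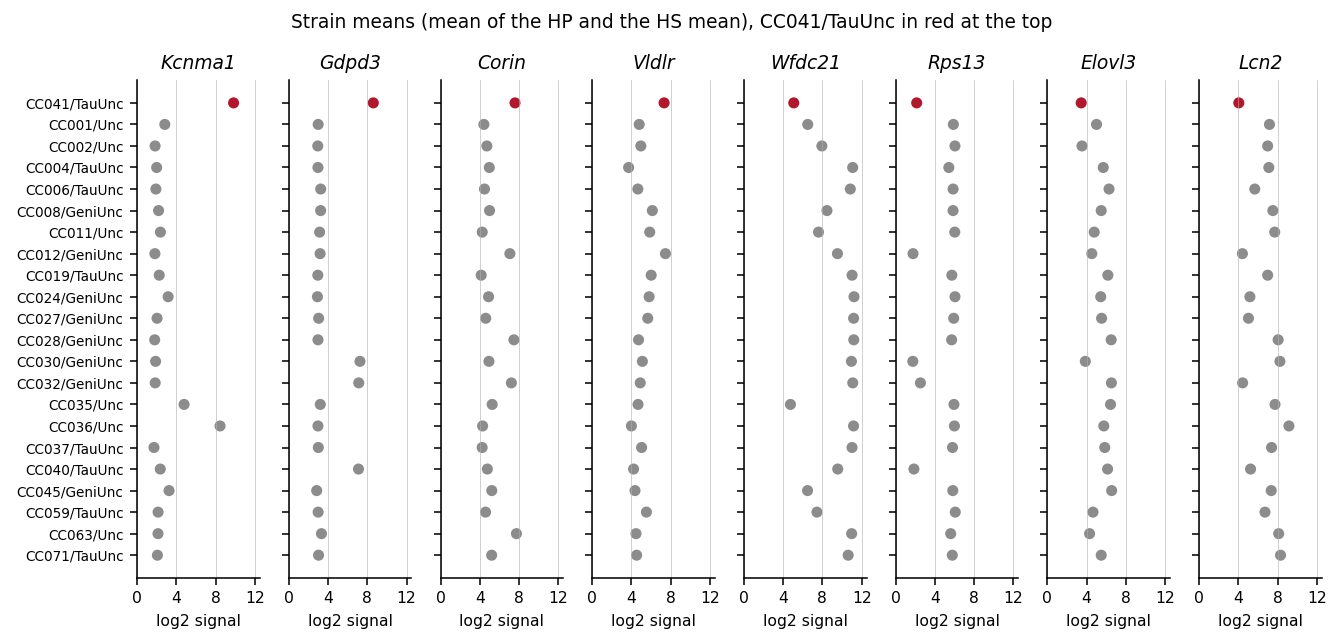
Strain means of log2 array signal (horizontal axis) for named genes, with CC041/TauUnc in red above the other 21 strains. For Kcnma1, CC041/TauUnc stood at 9.83 and CC036/Unc at 8.45, and for Wfdc21 CC035/Unc was below CC041/TauUnc at 4.74.

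Several genes that fell were in none of the gene lists. The gene 3830406C13Rik, of which no role is given here, had the smallest p of all, with 4.36, 3.28 and 4.32 on HP and 3.51 and 4.67 on HS in CC041/TauUnc, against 5.57 to 6.98 with a median of 6.43 in the other mice. Every CC041/TauUnc mouse was below every other mouse, at a difference of −2.37 ± 0.13 (adjusted p 7.37e-32, and 9.77e-19 with strain as a block). Cct6a, a subunit of the chaperonin that folds actin and tubulin, read 7.72, 7.52 and 7.56 on HP and 7.56 and 7.35 on HS, against 7.74 to 8.83 with a median of 8.39 in the other mice.

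The groups of Cct6a did not overlap either, although the difference was under 1 log2 unit (−0.81 ± 0.10, adjusted p 6.57e-10, and 1.12e-04 with strain as a block). These 4 genes without overlap, P2rx7, Gdpd3, 3830406C13Rik and Cct6a, were 0.0366% of the genes tested. The desmosomal cadherin genes Dsc2 and Dsg1c, which hold epithelial cells together, were both lower. Dsc2 differed by −1.08 ± 0.14 (adjusted p 8.87e-09, and 1.61e-04 with strain as a block) and Dsg1c by −2.78 ± 0.58 (adjusted p 0.00119, and 0.0301 with strain as a block). Cd300e, a receptor of myeloid cells, differed by −1.98 ± 0.41 (adjusted p 0.00103, and 0.0217 with strain as a block), while 0 of 17 Kupffer cell and macrophage markers were called.

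Upb1, the last enzyme of pyrimidine breakdown, read 10.44, 10.38 and 10.50 on HP and 10.43 and 10.25 on HS in CC041/TauUnc, against 9.31 to 10.42 with a median of 9.81 in the other mice. The 5 mice were at the top of the range, with 3 other mice at or above the lowest of them, and the difference was 0.57 ± 0.09 (adjusted p 7.25e-06, and 0.00821 with strain as a block). Tk1, which phosphorylates thymidine, was higher by 1.07 ± 0.23 (adjusted p 0.00191, and 0.25 with strain as a block), while 0 of 14 cell cycle genes were called. The ribosomal protein genes Rps13 (−2.92 ± 0.71, adjusted p 0.00845, and 0.0297 with strain as a block) and Rpl34 (−1.51 ± 0.32, adjusted p 0.00125, and 0.0372 with strain as a block) were the 2 called of 38 such genes, whose median was 0.12. Of the 38 differences 33 were positive, and 1.51% of all genes tested were called lower. Genes of this family have many near-identical pseudogene copies, so their readings are uncertain as to the copy.

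Of the markers of other liver cells, 2 sinusoidal endothelial and 1 stellate cell marker were higher with mice as units, 0 with strain as a block, and 0 of 17 Kupffer cell markers were called. Of the 10942 genes tested, 5636 had positive differences and 0.823% were called higher. All 20 markers of sinusoidal endothelial cells had positive differences, and 18 did without HS replicate 1. Their median was 0.24 against 0.01 over all genes tested, and 2 passed. These were Stab1, a scavenger receptor (0.38 ± 0.10, adjusted p 0.0264, and 0.637 with strain as a block), and Dnase1l3, a secreted DNase (0.49 ± 0.14, adjusted p 0.0301, and 0.748 with strain as a block). The mean level of the list was 7.32 to 7.59 in CC041/TauUnc mice, against 6.64 to 7.65 with a median of 7.15 in the other mice, so the groups overlapped.

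Of 18 stellate cell and fibroblast markers 1 rose, Reln, an extracellular matrix glycoprotein (0.52 ± 0.14, adjusted p 0.0242, and 0.358 with strain as a block), and the list's median was 0.26. Over all genes tested, 0.823% were higher. Of 13 hepatocyte markers 0 were called. In whole liver, more cells of a type and more RNA per cell cannot be told apart, and the part of these markers in the other differences was not tested.

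Some calls of the strain comparison did not outlast the loss of 1 mouse. Stab1, Stat2 and Apom lost theirs without any 1 of the 5 mice. Gpam (all but HP replicate 1), Hmgcs1 and C5ar2 (all but HS replicate 1), Reln (all but HP replicate 1), Dnase1l3 (all but HP replicate 3) and Serpina12 (all but HP replicate 2) lost theirs without any 1 of the 4 mice meant. Lcn2 lost its call without HP replicate 3, HS replicate 1 or HS replicate 2 (−2.57 and an adjusted p of 0.0943 in the last case), Grk3 without HP replicate 2, HP replicate 3 or HS replicate 2 (1.23 and 0.0769 in the first), Hp without HP replicate 1 (−0.46 and 0.110), Rps13 without HS replicate 1 (−2.74 and 0.0556) and Vmn1r53 without HS replicate 2 (2.31 and 0.0682). The highest adjusted p of these refits was 0.0922 for Stab1 (without HP replicate 2), 0.154 for Gpam (without HP replicate 2), 0.102 for Hmgcs1 (without HS replicate 2), 0.207 for Dnase1l3 (without HS replicate 2) and 0.222 for Serpina12 (without HS replicate 2).

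Over all 59 gene lists, 32 of 977 tested genes were called (3.28%, against 2.33% of all genes tested), 9 higher and 23 lower, and 7 with strain as a block (0.716%, against 0.311%).

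**Figure D3:**
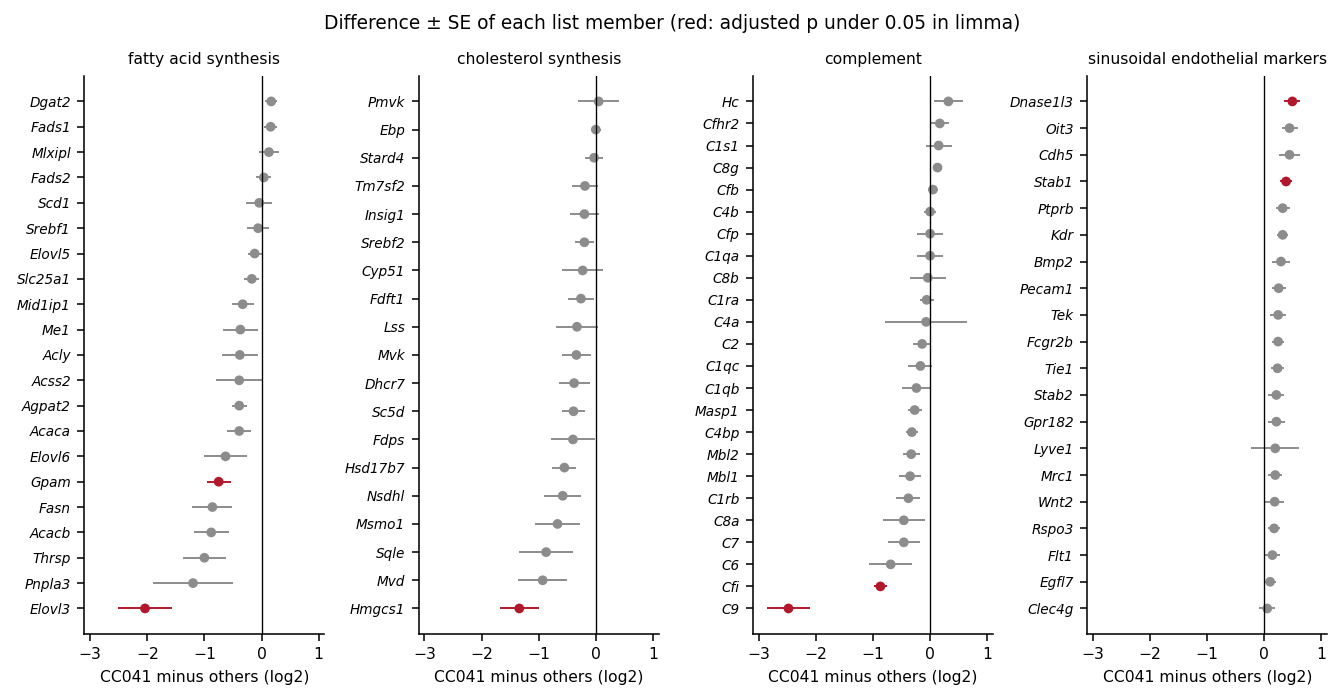
Differences of CC041/TauUnc from the other mice (log2, horizontal axis) for the members of 4 gene lists, with bars for the SE and called genes in red. The list medians were −0.38 for fatty acid synthesis, −0.34 for cholesterol synthesis and 0.24 for sinusoidal endothelial markers, against 0.01 over all genes tested.

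The genes called were spread over the genome, by the positions of RefSeq genes in GRCm38.p6. Of all genes tested, 2.33% were called, 0.823% higher and 1.51% lower. The share called was 5.51% on chromosome 18 (15 of 272), 3.89% on chromosome 5 (28 of 719) and 1.11% on chromosome 16 (4 of 359), and 0 of 10 mitochondrial genes were called. Some stood close together. Within 7 neighbouring tested genes of chromosome 5, Rad9b, a checkpoint gene, and Ift81, of the transport along cilia, were called beside Gpn3, a GTPase of RNA polymerase II assembly, and P2rx7, with 2 of these 4 lower and 2 higher. Gpn3 was higher by 0.86 ± 0.12 (adjusted p 1.81e-07, and 0.00821 with strain as a block) and Rad9b lower by 2.06 (log2 difference −2.06 ± 0.39, adjusted p 2.15e-04, and 0.00135 with strain as a block). On chromosome 13, 5 genes among 18 neighbouring tested genes were called, Sgtb, Trappc13, Cwc27, Kif2a and Mier3, and all were lower. These neighbours were picked after their values were seen. Founder sequence under the array probes can differ between strains and change the signal without a change in RNA, and its part in any of these differences was not tested.

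The second question was how diet moved the CC041/TauUnc liver. Between HP and HS mice of the strain, 2 of 10942 genes passed (0.0183%), Cyp17a1 and C9, both higher on HP, and 508 (4.64%) had an unadjusted p under 0.05. Among the other strains, fitted together in the same model, 2380 genes differed by diet (21.8%), 1198 higher (10.9%) and 1182 lower (10.8%) on HP. The difference between the diet effect of CC041/TauUnc and that of the other strains passed in 0 genes (0%) by limma, and 323 (2.95%) had an unadjusted p under 0.05. With 3 mice against 2, a gene that missed the threshold is not thereby shown to be unmoved.

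Cyp17a1, which makes the precursors of androgens from progestogens, read 9.55, 8.28 and 7.46 in HP mice and 5.38 and 5.71 in HS mice of CC041/TauUnc. All HP mice were above both HS mice, at a difference of 2.88 ± 0.51 (7.37-fold, adjusted p 0.00251). In the other strains it averaged 10.39 ± 0.95 on HP and 9.44 ± 1.40 on HS (SD), a fitted difference of 0.91 (adjusted p 7.33e-11), and 20 of the 21 strains moved the same way, from −0.03 in CC024/GeniUnc to 2.71 in CC036/Unc. CC041/TauUnc had the largest value of the 22, but the test of the excess (1.97 ± 0.52, unadjusted p 2.88e-04, adjusted p 1.0) did not pass. Across both diets Cyp17a1 was also lower in CC041/TauUnc than in the other mice, whose range was 5.51 to 11.61 (−2.74 ± 0.54, adjusted p 5.04e-04, and 0.0275 with strain as a block).

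C9 read 7.67, 7.37 and 7.97 in HP mice of CC041/TauUnc and 6.78 and 5.39 in HS mice, without overlap. The HP minus HS difference was 1.59 ± 0.32 (3.00-fold, adjusted p 0.0234). The other strains averaged 9.48 ± 0.78 on HP and 9.55 ± 0.89 on HS (SD), with a fitted difference of −0.01 (adjusted p 0.936), and 12 of 21 strains had a positive one, from −0.85 in CC045/GeniUnc to 0.67 in CC032/GeniUnc. C9 thus showed a diet difference in CC041/TauUnc and no diet difference past the threshold over the other strains, and the test of that contrast gave 1.60 ± 0.33 with an adjusted p of 0.0619. Both calls rest on few mice. Cyp17a1 lost its call without HP replicate 1 (2.32, adjusted p 0.271), HS replicate 1 (2.71, adjusted p 0.197) or HS replicate 2 (3.05, adjusted p 0.116), and C9 without HP replicate 1 (1.59, adjusted p 0.271), HP replicate 3 (1.44, adjusted p 0.389) or HS replicate 2 (0.89, adjusted p 0.999), and neither passed when the CC041/TauUnc mice were fitted alone.

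**Figure D4:**
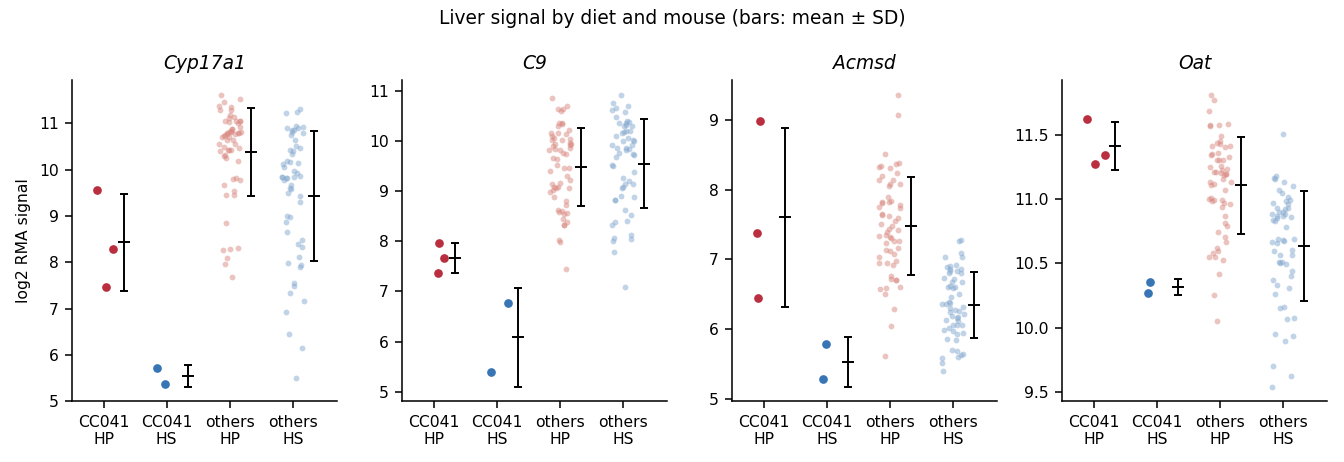
Log2 array signal (vertical axes) of diet genes in single mice, HP left of HS, with CC041/TauUnc left of the other strains and bars for the mean and SD. C9 read 7.37 to 7.97 in HP and 5.39 to 6.78 in HS mice of CC041/TauUnc, while the other strains averaged 9.48 on HP and 9.55 on HS.

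Other genes with all HP mice of CC041/TauUnc on 1 side of both HS mice did not pass, and their values are given as they stand; such a separation was found in 2023 genes (18.5%). Oat, ornithine aminotransferase, which breaks down ornithine, read 11.63, 11.34 and 11.27 on HP and 10.36 and 10.27 on HS (1.1 ± 0.27, adjusted p 0.234), with 0.48 over the other strains. Acmsd, an enzyme that steers tryptophan away from NAD, read 8.98, 6.44 and 7.38 on HP and 5.79 and 5.28 on HS (2.07 ± 0.50, adjusted p 0.234), with 1.13 over the other strains. Both differed in the same direction in all 21 other strains, and CC041/TauUnc had the largest difference of the 22 in both. The next largest was close for Oat (1.09 in CC008/GeniUnc) and was 1.78 in CC037/TauUnc for Acmsd. Oat, Acmsd and Vnn3 below were named for small p within CC041/TauUnc, so their place among the strains partly follows from that choice.

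Nnmt, which methylates nicotinamide, read 6.18, 4.79 and 5.99 on HP and 3.36 and 3.85 on HS (2.04 ± 0.59, adjusted p 0.662), with 0.83 over the other strains. Vnn3, a member of the vanin family of pantetheinases, ran the other way, with 5.95, 6.79 and 6.03 on HP and 7.23 and 7.32 on HS (−1.02 ± 0.25, adjusted p 0.234). Over the other strains Vnn3 differed by −0.08 (adjusted p 0.276), and the strains ran from −0.55 to 0.24, all above the CC041/TauUnc value.

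Set beside the other strains, CC041/TauUnc had the usual direction of diet differences in most genes. Of the 2380 genes called over the other strains, 1826 (76.7%) had the same sign in CC041/TauUnc, against 61.8% of all genes tested. The same share ran from 59.8% in CC024/GeniUnc to 84.6% in CC002/Unc when each other strain was set in turn against its own remainder, with a median of 76.7%. The differences of the 2380 genes correlated at r = 0.575 across genes, which are not independent replicates and share the arrays of each group. The number of genes called by diet was 0 to 58 per strain, with a median of 5 in the other strains.

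Single genes among the strongest of the other strains differed in size. Ivd, of leucine breakdown, was 0.14 ± 0.13 higher on HP in CC041/TauUnc and 0.41 ± 0.03 in the other strains, and Dbt, of branched-chain keto acid breakdown, 0.25 ± 0.13 and 0.36 ± 0.03. Slc22a7, an organic anion transporter, had −0.47 ± 0.43 in CC041/TauUnc and −1.07 ± 0.09 in the other strains, and Pklr, liver pyruvate kinase, −0.28 ± 0.27 and −0.60 ± 0.06. Gstt2, a glutathione transferase, had −0.05 ± 0.30 in CC041/TauUnc and 0.72 ± 0.06 in the other strains, and Gna14, a G protein alpha subunit, 0.10 ± 0.36 and −0.86 ± 0.07. The tests of these 6 contrasts did not pass (adjusted p 1.0 each), with unadjusted p of 0.0116 for Gna14, 0.0156 for Gstt2, 0.0471 for Ivd and over 0.05 for the others. Over the other strains, 10.9% of all genes tested were called higher and 10.8% lower on HP. Of 43 genes of amino acid breakdown, 24 were higher and 3 lower there, with a median of 0.11. In CC041/TauUnc 0 were called, 7 had a positive and 1 a negative difference with an unadjusted p below 0.05, and the median was 0.19. Of all genes tested, 2.28% were higher and 2.36% lower at that threshold.

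**Figure D5:**
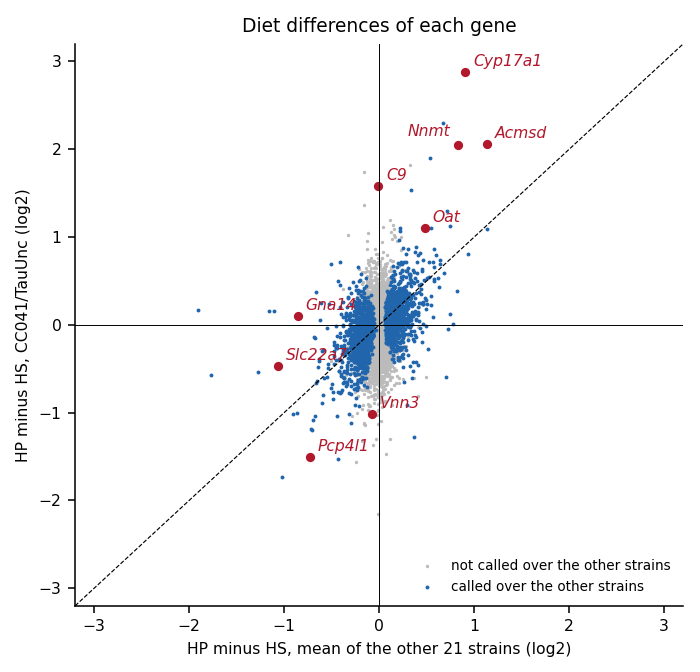
HP minus HS difference (log2) of each gene in CC041/TauUnc against that over the other strains, with genes called over the other strains in blue and named genes in red. Of those 2380 genes, 1826 had the same sign in both, and Cyp17a1 (2.88) and C9 (1.59) passed within CC041/TauUnc.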

How the data were processed

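Liver RNA of each mouse was hybridised to 1 Affymetrix MoGene 2.1 ST array. The authors deposited log2 signals of 41345 transcript clusters made by RMA over all arrays, and per the submitters' processing notes with Affymetrix Expression Console, whose version is not given in the sources used here. Arrays have no read depth, and their number limits the precision. Clusters with 1 gene symbol were kept (23521), a level above 4.0764 in 12.5% of mice was required, and the brightest cluster stood for a gene, which left 10942 genes. Strain was compared in a model of group and diet, and diet within CC041/TauUnc and the other strains in a model of 44 strain and diet groups, by linear models with moderated variances (limma 3.58.1, R 4.3.3), called at a Benjamini-Hochberg adjusted p under 0.05. Named genes were the 15 largest differences in each direction past the threshold with the strain mean outside the other strains' range, the largest diet differences within CC041/TauUnc, the smallest p of the contrast and of the other strains, and leading members of each list. The members and lists were chosen with earlier results of these data known. The strain fit with mice as units and the diet fit were run on simulated data that held no spread between strains. That run therefore does not bear on how strain spread affects the strain calls. The random block and the fit of strain means were not run on simulated data. The paper's first filter of probes was not repeated. Replicate numbers are in accession order and pair no mice.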

Additional observations from a re-analysis of the deposited data

Results flagged for a closer look

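In the CC041/TauUnc values of 5 genes, the gap between 1 mouse and the other 4 was large for the range of the 5. These were 4.95% of the items checked, and chance alone picks out about 1 in 20, so the number is that of chance. HP replicate 1 was low in Csrp3, a muscle LIM protein gene (3.8, with 5.73 to 6.45 in the other 4 mice), and in Cadps2, of vesicle release (5.45, with 5.54 to 5.57, a small gap). HP replicate 2 was low in the fructose kinase gene Khk (9.65, with 10.29 to 10.46), in Fasn (8.5, with 9.41 to 9.76) and in Oas1g, an interferon-induced gene (1.74, with 3.39 to 3.57).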

How the results depend on the processing

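The 2.33% called by strain became 0.402% with HP mice only, 0.155% with HS mice only and 0.311% with strain as a random block. It became 13.7% in the fit of strain means and 0.987% of a larger table with no expression filter. Without 1 CC041/TauUnc mouse it was 1.02% to 1.41%, lowest without HS replicate 2. The 9 other alternatives moved the share by less than 1.5 times. The 2 genes of diet within CC041/TauUnc became 0 with these mice alone, 0 in a fit of 4 groups, 4 with no expression filter and 0 to 5 without 1 mouse. The 2380 genes of diet over the other strains became 1530 with the clock score as a term and 1205 in the fit of 4 groups. The 0 genes of the contrast became 1 with array weights, 1 with no expression filter and 0 to 1 without 1 mouse (C9 without HS replicate 1, 2.28 within CC041/TauUnc). The 845 genes outside the range became 1792 with no expression filter and 964 to 1402 without 1 mouse. The 32 list members became 7 with strain as a random block and 211 in the fit of strain means. Of the 71 named genes called by strain, some were named for their block values. Their calls were lost in 277 of 1349 refits, and 60 of the genes lost theirs in at least 1 refit. In these refits 0 directions were reversed, but the refits reuse mice by which the genes were picked. A kept direction was therefore close to fixed in advance. No paired analysis was possible because the labels give no replicate numbers. Without labels of cage, plate or collection day no batch could be a term, and 5 mice of 1 genotype give no spread of their own between strains.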

Other observations

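An expression filter that also admits genes through the CC041/TauUnc median let in 7 more genes, which had to be higher there and are given as a description. Bex1 had a median of 4.90 in CC041/TauUnc and 1.98 in the other mice, the asparagine synthetase gene Asns 4.30 and 3.33, and the Notch pathway gene Dtx1 4.40 and 3.56. The others were C1qtnf7 (4.18 and 3.22), the cell cycle inhibitor gene Cdkn1c (4.22 and 3.54), Nhlrc1 (4.15 and 3.49) and Spaca6 (4.10 and 3.62).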
